A study of Rattus norvegicus with 24 samples.

Results

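The genes described here are 29 genes of cholesterol and lipid synthesis that stand under control of the SREBP transcription factors, out of 36856 genes in each deposited count table. They were taken by symbol and fall into 4 regulators, 20 genes of the sterol arm and 5 genes of the fatty acid arm. All 29 were found in all 3 tables and all 29 passed the filter on low counts in every comparison.

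Sprague-Dawley rats of 120 to 200 g ate a synthetic diet for 7 days, and RNA of 4 rats per group was sequenced. In the first experiment the inner medulla (papilla) of rats on 0.4% Na with an osmotic minipump releasing aldosterone at 12 µg per day was compared with that of controls on the same diet without the hormone. In the second, rats on low salt (0.01 to 0.02% Na) were compared with rats on 0.4% Na, which the sample titles call high salt, both in the inner medulla and in a piece of heart ventricle. No group carried a transgene or a mutation according to the labels, and the labels do not say whether kidney and heart came from the same rats, nor what the aldosterone controls carried in place of the pump. Replicates 1 and 2 of each group were batch 1 and replicates 3 and 4 batch 2. Library totals ran from 24299423 to 38318764 counts, so 1 CPM, the unit of levels here (counts scaled to library size), stands for at least 24 counts.

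The labels give female rats, and not all libraries matched that. The RNA of the inactive X chromosome, Xist, was read at 234.4 to 451 CPM in all 8 aldosterone and control libraries, but at no more than 0.0932 CPM in the 16 libraries of the salt experiment. A sum over Y-linked genes (Uty, Kdm5d, Ddx3y and Eif2s3y) came to 0.0340 to 0.320 CPM in those 8 and to 148 to 276 CPM in those 16. Each comparison of treatments lies within 1 of the 2 patterns, but any comparison of the aldosterone response with the low-salt response runs across them. Markers of principal cells and of ventricular cardiomyocytes followed the tissue labels. The 7 principal cell genes summed to 8498 to 13839 CPM in kidney libraries and to 0.135 to 41.4 CPM in heart libraries. The 5 genes of ventricular cardiomyocytes summed to 38206 to 50441 CPM in heart libraries. Other markers were read as well: 4 thick ascending limb genes summed to 758 to 3694 CPM in kidney libraries, and 5 atrial genes to 34.6 to 2547 CPM in heart libraries.

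SREBPs are transcription factors held in the membrane of the endoplasmic reticulum by the sterol sensor Scap and the retention protein Insig1. When membrane sterol falls, Scap escorts the precursor to the Golgi, where proteases release the active domain, which binds sterol regulatory elements next to sites of NF-Y and Sp1. SREBP-2 (from Srebf2) mainly drives sterol synthesis and uptake, and SREBP-1 (from Srebf1) mainly drives fatty acid synthesis and desaturation. In the inner medulla, cells live in strongly hypertonic surroundings, and the ventricle takes most of its energy from the oxidation of fatty acids that it largely imports.

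Promoters are shown for 5 genes on which the results below turn and which have an entry in the RefSeq promoter table (build GRCr8): Srebf2 and Hmgcs1 for the low-salt kidney, Lss for aldosterone, and the neighbouring desaturase genes Fads1 and Fads2 for the difference between tissues. Each window holds 250 bases before the annotated start and 50 bases after it, printed 5′ to 3′ on the strand of the gene. Capitals mark the short sterol regulatory element TCACNCCA and the NF-Y box CCAAT, found on either strand, so that CCAAT on the other strand reads ATTGG. Srebf2 lies at chr7:115543057-115543356 (plus strand), Hmgcs1 at chr2:53382054-53382353 (plus), Lss at chr20:12118181-12118480 (minus), Fads1 at chr1:216252442-216252741 (plus) and Fads2 at chr1:216171984-216172283 (minus).
Srebf2: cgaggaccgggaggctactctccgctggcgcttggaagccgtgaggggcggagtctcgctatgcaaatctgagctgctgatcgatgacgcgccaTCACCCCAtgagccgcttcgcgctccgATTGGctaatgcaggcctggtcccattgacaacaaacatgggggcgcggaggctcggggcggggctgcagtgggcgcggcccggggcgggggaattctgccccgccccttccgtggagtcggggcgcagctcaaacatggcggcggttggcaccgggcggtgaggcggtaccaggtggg
Hmgcs1: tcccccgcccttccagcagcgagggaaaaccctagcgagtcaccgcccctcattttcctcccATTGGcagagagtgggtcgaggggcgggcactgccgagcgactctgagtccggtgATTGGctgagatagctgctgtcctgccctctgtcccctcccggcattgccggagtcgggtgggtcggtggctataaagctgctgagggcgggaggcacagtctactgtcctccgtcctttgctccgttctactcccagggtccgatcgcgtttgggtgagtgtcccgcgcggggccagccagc
Lss: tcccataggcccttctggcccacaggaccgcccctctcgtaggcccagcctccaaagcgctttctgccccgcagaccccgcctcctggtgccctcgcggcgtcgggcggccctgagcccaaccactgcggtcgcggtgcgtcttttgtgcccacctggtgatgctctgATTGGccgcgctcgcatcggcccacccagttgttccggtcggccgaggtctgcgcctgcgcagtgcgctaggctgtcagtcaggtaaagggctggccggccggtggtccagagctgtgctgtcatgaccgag
Fads1: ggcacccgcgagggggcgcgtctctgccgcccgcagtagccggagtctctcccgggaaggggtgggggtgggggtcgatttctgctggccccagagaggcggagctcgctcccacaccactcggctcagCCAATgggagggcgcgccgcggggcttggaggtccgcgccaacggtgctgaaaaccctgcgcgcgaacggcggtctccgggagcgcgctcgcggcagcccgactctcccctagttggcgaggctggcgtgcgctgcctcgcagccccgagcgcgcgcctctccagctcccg
Fads2: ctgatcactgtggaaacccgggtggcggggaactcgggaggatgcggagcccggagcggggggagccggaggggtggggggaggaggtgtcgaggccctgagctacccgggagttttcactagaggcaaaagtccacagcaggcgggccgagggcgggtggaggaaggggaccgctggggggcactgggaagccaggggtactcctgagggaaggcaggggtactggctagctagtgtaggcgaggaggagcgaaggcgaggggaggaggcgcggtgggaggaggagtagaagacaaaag

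The Srebf2 window held 1 short sterol regulatory element, 156 bases before the start, and an NF-Y box 129 bases before it, and these did not overlap. Hmgcs1 held 2 NF-Y boxes, 188 and 133 bases before the start, Lss held 1 at 82 bases and Fads1 held 1 at 121 bases. Fads2 held none of the marked letters, and its start lies 80.7 kb from that of Fads1, on the other strand. Of the 29 members, 23 had an entry and gave 24 promoters, since Srebf1 had 2. Of the 24, 18 held CCAAT (75%, against 37.5% of all 33469 promoters of the same length) and 21 held the Sp1 box GGGCGG (87.5%, against 33.1%). The short sterol element stood in 2, those of Srebf2 and Msmo1 (8.33%, against 3.89%), and its longer form TCACNCCAC, which contains the short one, stood in 0 of 24 (1.12% of all). The E-box CACGTG stood in 3, those of Insig1, Sc5d and Scap (12.5%, against 6.42%). All motifs were searched on both strands, and a match describes letters in a window and not a site that was measured.

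**Figure D1:**
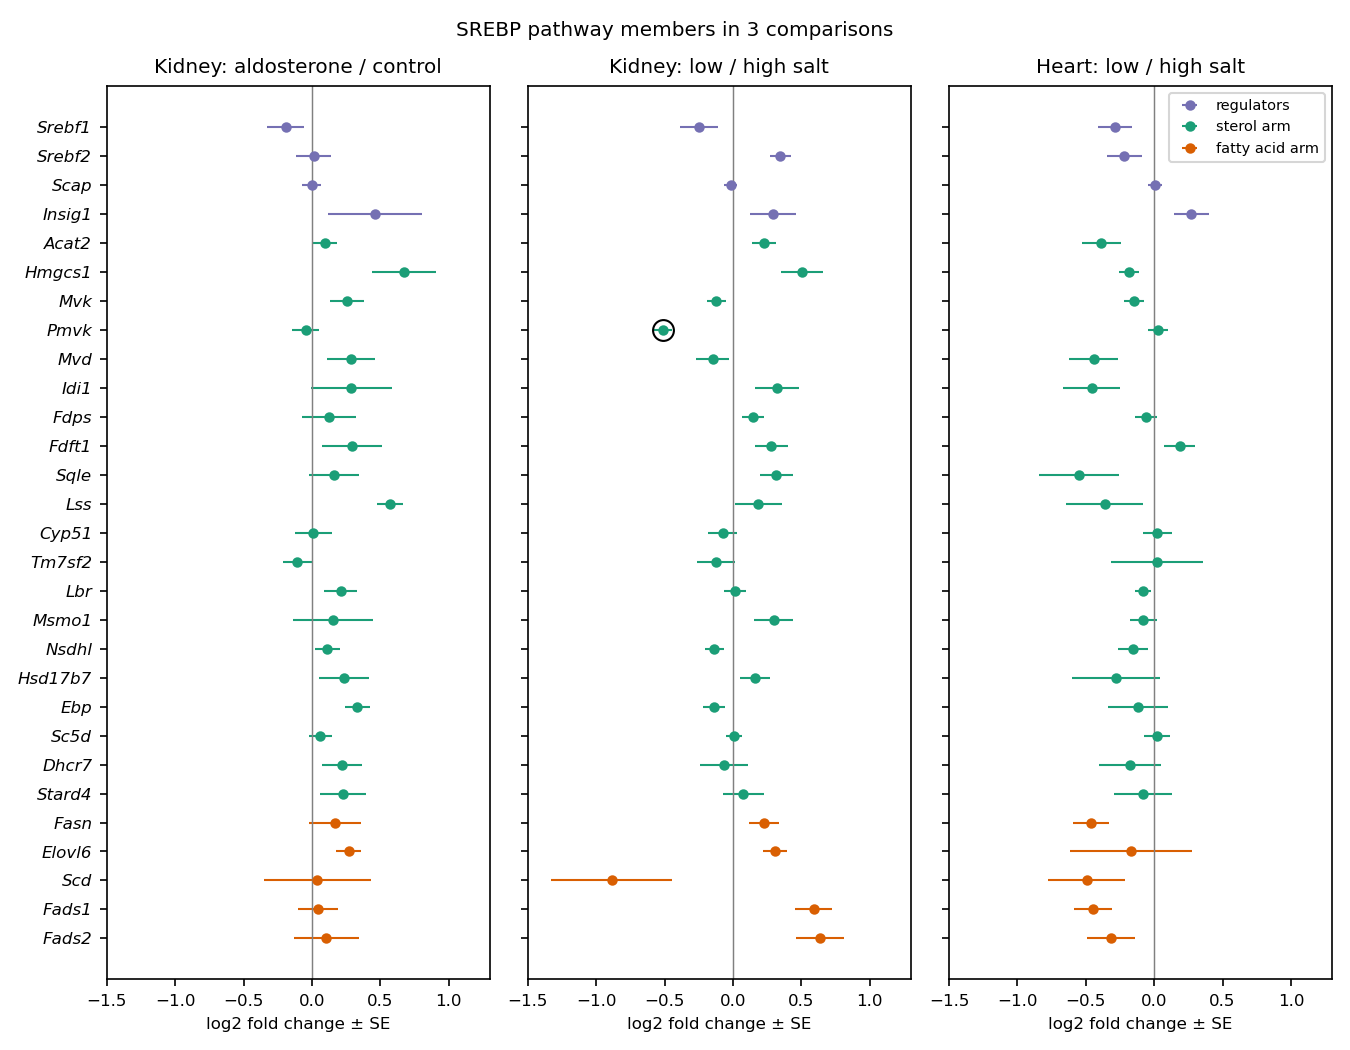
Log2 fold change of each of the 29 genes (rows, grouped as regulators, sterol arm and fatty acid arm) under aldosterone, under low salt in kidney and under low salt in heart; points are the fitted value and bars the standard error, n = 4 rats per group. A ring marks an adjusted p under 0.05 in edgeR, which in these panels only Pmvk in the low-salt kidney reached (-0.52; DESeq2 also passed 5 members there and Lss under aldosterone), and the fatty acid arm lies right of 0 for 4 of 5 genes in the low-salt kidney and left of 0 for 5 of 5 in the low-salt heart.

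Low salt against high salt in the inner medulla answers how these genes stand when dietary Na is low. Pmvk, the phosphomevalonate kinase of the mevalonate pathway, fell, and it was the single member of 29 that edgeR's quasi-likelihood test called. Over all 18449 genes tested the test called 454 (2.46%), with 201 up (1.09%) and 253 down (1.37%), so 1 lower member of 29 is near the background. DESeq2, the other count test, called 5 members higher (Srebf2, Hmgcs1, Elovl6, Fads1 and Fads2) and 1 lower (Pmvk), where it called 4.46% of all genes higher and 4.73% lower. By edgeR's p before adjustment, 8 members stood higher and 1 lower at under 0.05, beside 8.98% and 10.6% of all genes.

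Pmvk stood at 44.1, 50.8, 43.9 and 46.9 CPM in low-salt kidneys, against 65.5, 70.0, 68.9 and 61.1 CPM in high-salt kidneys, for replicates 1 to 4 in that order as in all such lists below. All 4 low-salt rats lay below all 4 high-salt rats. The log2 fold change was -0.52 ± 0.072 (SE), with an adjusted p of 0.0201 in edgeR and 9.85e-07 in DESeq2, and it was -0.52 in batch 1 and -0.52 in batch 2. The call was lost when high-salt replicate 1, 2 or 3 was left out (adjusted p 0.0531, 0.0716 and 0.0640) and when low-salt replicate 3 or 4 was (0.0648 and 0.0551), while the log2 fold change stayed between -0.55 and -0.48.

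Among the regulators, Srebf2 stood at 211, 219.6, 193 and 189 CPM in low-salt kidneys, against 161, 159.7, 143 and 175 CPM in high-salt kidneys. Each low-salt rat lay above each high-salt rat, and the log2 fold change was 0.35 ± 0.075, with an adjusted p of 0.0537 in edgeR and 0.00160 in DESeq2. Its sister gene Srebf1 had the opposite sign, with 67.4, 83.1, 97.1 and 84.1 CPM in low-salt kidneys, against 97.0, 117, 82.0 and 97.7 CPM in high-salt kidneys (log2 -0.25 ± 0.14, adjusted p 0.355), and the groups overlapped. That sign came from batch 1, as the log2 value of Srebf1 was -0.51 in batch 1 and 0.012 in batch 2. Insig1, itself a target of SREBP that holds the Scap complex back, gave 0.29 ± 0.17 on the log2 scale (adjusted p 0.383), and Scap gave -0.019 ± 0.046 (0.861).

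In the sterol arm the median log2 fold change was 0.045, with 12 genes above 0 and 8 below, where all genes tested had a median of -0.0035 and 49.3% above 0. That median ranged from -0.0051 without low-salt replicate 4 to 0.11 without low-salt replicate 1. It was -0.078 in batch 1 alone and 0.082 in batch 2 alone. Hmgcs1, which makes HMG-CoA at the entry of the pathway, stood at 89.7, 98.6, 123 and 109 CPM in low-salt kidneys, against 70.3, 95.5, 59.8 and 71.0 CPM in high-salt kidneys. The highest high-salt value exceeded the lowest low-salt value, so the groups overlapped. Its log2 fold change was 0.50 ± 0.15, with an adjusted p of 0.125 in edgeR and 0.0195 in DESeq2, and it was 0.18 in batch 1 alone and 0.83 in batch 2 alone. Acat2, the cytosolic thiolase that feeds it with acetoacetyl-CoA, had 44.4, 45.7, 47.3 and 37.1 CPM in low-salt kidneys, against 41.9, 38.9, 32.8 and 35.7 CPM in high-salt kidneys (log2 0.23 ± 0.089, adjusted p 0.205).

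Nsdhl, which removes methyl groups from the sterol ring, stood at 23.1, 24.2, 24.1 and 24.9 CPM in low-salt kidneys, against 28.7, 26.8, 25.3 and 25.1 CPM in high-salt kidneys. Its groups did not overlap, but the log2 fold change was only -0.14 ± 0.072 with an adjusted p of 0.338. Counting groups without overlap, 2 members were higher on low salt (Srebf2 and Elovl6) and 2 lower (Pmvk and Nsdhl), beside 4.83% and 6.62% of all genes. The steps next to Pmvk did not pass the test: Mvk, the kinase before it, gave -0.12 ± 0.071 on the log2 scale (adjusted p 0.390), Mvd, the decarboxylase after it, -0.15 ± 0.12 (0.542), and Idi1, the isopentenyl isomerase, 0.32 ± 0.16 (0.312).

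The genes in the middle of the pathway all had positive fitted values over both batches, without passing the test. The log2 fold change was 0.15 ± 0.079 for Fdps, which builds farnesyl diphosphate, 0.28 ± 0.12 for Fdft1, the squalene synthase, 0.31 ± 0.12 for Sqle, the squalene epoxidase, and 0.19 ± 0.18 for Lss, the lanosterol synthase. Their adjusted p-values were 0.350, 0.241, 0.200 and 0.600 in that order. Lss changed sign between batches, with 0.53 in batch 1 and -0.16 in batch 2. The genes that turn lanosterol into cholesterol were of both signs: Msmo1, the methyl sterol oxidase, had 0.30 ± 0.14 and Hsd17b7, a ketoreductase, 0.16 ± 0.11, whereas Cyp51, the lanosterol demethylase, had -0.075 ± 0.10, Tm7sf2, a sterol reductase, -0.13 ± 0.14, Ebp, the sterol isomerase, -0.14 ± 0.081 and Dhcr7, the last reductase, -0.066 ± 0.17. Lbr, which is both a nuclear envelope protein and a sterol reductase, Sc5d, the sterol desaturase, and Stard4, a cytosolic sterol carrier, lay between 0.0074 and 0.075.

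In the fatty acid arm the median was 0.31 and 4 of 5 genes were above 0. Fads1, the delta-5 desaturase of polyunsaturated fatty acids, stood at 245, 187, 201 and 141 CPM in low-salt kidneys, against 159, 143, 96.7 and 119 CPM in high-salt kidneys. Fads2, the delta-6 desaturase, stood at 118, 75.8, 104 and 102 CPM in low-salt kidneys, against 75.9, 83.3, 51.9 and 51.6 CPM in high-salt kidneys. In both genes replicate 1 was the highest of the low-salt rats, while the lowest was replicate 4 in Fads1 and replicate 2 in Fads2, and both overlapped with high salt. The log2 fold changes were 0.59 ± 0.14 and 0.64 ± 0.17, with adjusted p-values of 0.0635 and 0.0959 in edgeR and of 0.000968 and 0.00486 in DESeq2.

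Elovl6, which lengthens palmitate to stearate, stood at 62.7, 56.4, 62.7 and 59.1 CPM in low-salt kidneys, against 50.3, 49.0, 42.0 and 53.6 CPM in high-salt kidneys. The 4 low-salt rats lay above the 4 high-salt rats, and the log2 fold change of 0.31 ± 0.086 had an adjusted p of 0.101 by edgeR and 0.0200 by DESeq2. Fasn, the fatty acid synthase, had 0.22 ± 0.11 (adjusted p 0.304). Scd, a stearoyl-CoA desaturase, was the exception in sign and was scarce. It had 2.20, 1.37, 2.21 and 2.62 CPM in low-salt kidneys, against 3.57, 4.54, 6.07 and 1.25 CPM in high-salt kidneys. The log2 fold change was -0.89 ± 0.44 (adjusted p 0.310), and the groups overlapped.

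**Figure D2:**
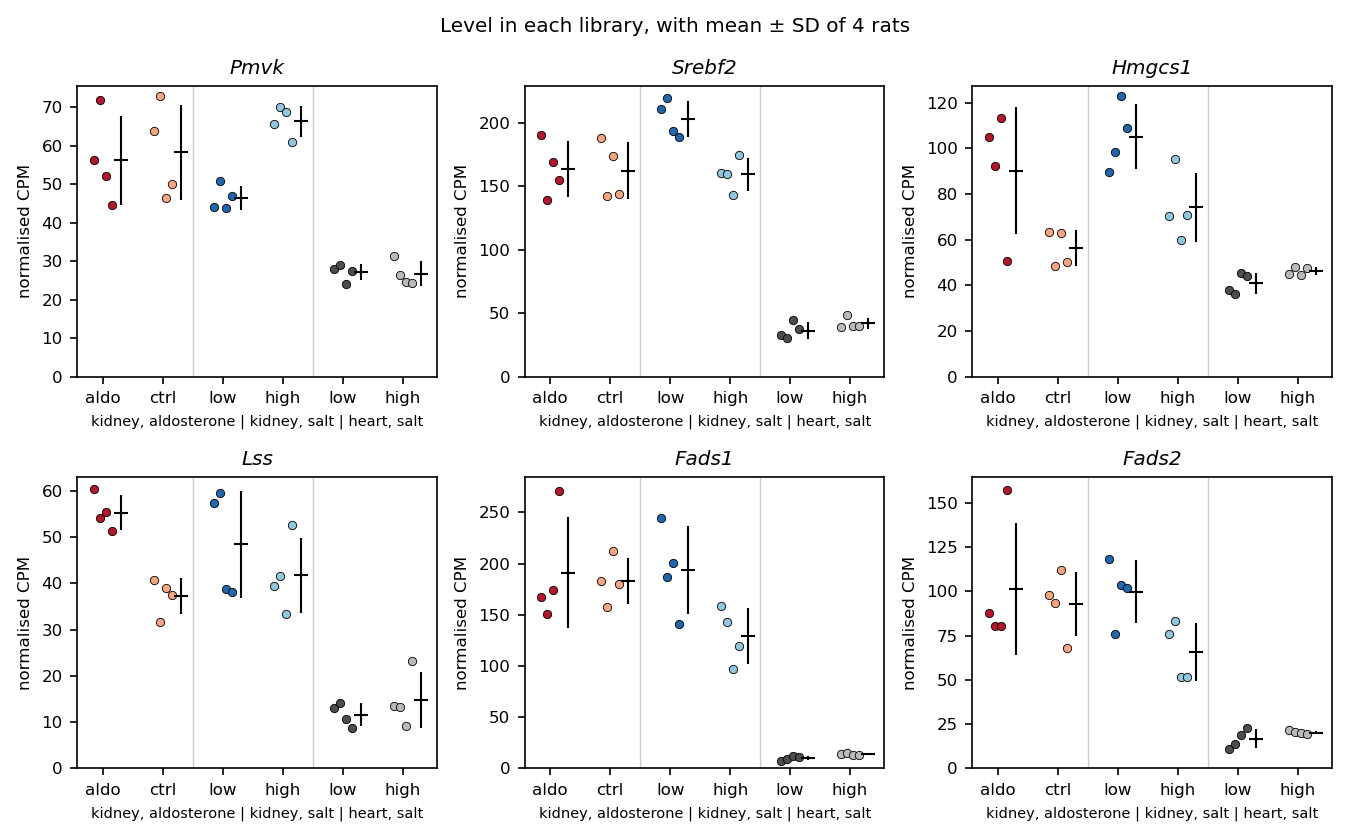
Normalised CPM per library for Pmvk, Srebf2, Hmgcs1, Lss, Fads1 and Fads2 in the 6 groups; points are single rats and the bar and whiskers give the mean ± SD, n = 4. Pmvk separates low-salt from high-salt kidneys (43.9 to 50.8 against 61.1 to 70.0 CPM), and Lss separates aldosterone-infused rats from their controls (51.3 to 60.3 against 31.7 to 40.7 CPM).

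Other genes of the pathway were read from lists chosen for their role. Of 16 genes of sterol uptake and SREBP control outside the members, 0 rose and 1 fell by edgeR in the low-salt kidney (median log2 -0.12), beside the 1.09% and 1.37% of all genes given above. The one that fell was Tmem97, a sterol-responsive protein of the endoplasmic reticulum, with 14.4 ± 1.10 CPM in low-salt and 19.98 ± 1.54 CPM in high-salt kidneys (SD, n = 4 each; log2 -0.47 ± 0.094, adjusted p 0.0465 in edgeR and 0.000926 in DESeq2). Rnf139, a ubiquitin ligase of the endoplasmic reticulum, gave 0.24 ± 0.069 on the log2 scale (adjusted p 0.109 in edgeR and 0.0316 in DESeq2).

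Of 18 further genes of fatty acid synthesis, 0 rose and 1 fell by edgeR (median -0.022), while DESeq2 called 1 higher (Aacs) and 2 lower (Me1 and Slc25a1), beside 4.46% and 4.73% of all genes. Me1, the cytosolic malic enzyme that supplies NADPH for fatty acid synthesis, fell to 206 ± 34.9 CPM in low-salt kidneys, against 477 ± 68.4 CPM in high-salt kidneys (log2 -1.21 ± 0.14, adjusted p 0.0163 in edgeR). Slc25a1, the mitochondrial citrate carrier, gave -0.21 ± 0.050 on the log2 scale (adjusted p 0.0672 in edgeR and 0.0168 in DESeq2), Aacs, the acetoacetyl-CoA synthetase, 0.64 ± 0.18 (0.0962 in edgeR and 0.00578 in DESeq2) and Mlxipl, the carbohydrate-response factor, 0.40 ± 0.14 (0.161).

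Of 12 genes that answer to the oxysterol receptor LXR or serve sterol efflux and esterification, 0 rose and 2 fell by edgeR (median -0.030). Beside these, edgeR called 1.09% of all genes higher and 1.37% lower. DESeq2 called the same pair lower and 0 higher, beside 4.73% of all genes lower and 4.46% higher. Abcg1, a sterol exporter, fell to 128 ± 23.8 CPM in low-salt kidneys, against 209 ± 28.5 CPM in high-salt kidneys (log2 -0.72 ± 0.13, adjusted p 0.0402). Mylip, a ubiquitin ligase, fell to 110.5 ± 23.4 CPM in low-salt kidneys, against 146 ± 31.6 CPM in high-salt kidneys (log2 -0.41 ± 0.082, adjusted p 0.0475). Cyp27a1, the sterol 27-hydroxylase, and Soat1, which esterifies cholesterol, had log2 fold changes of 0.33 ± 0.13 and 0.24 ± 0.095 (adjusted p 0.207 and 0.211).

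In these bulk samples fewer cells of a type and less RNA per cell cannot be told apart. In the low-salt kidney the summed markers of each of 14 cell types overlapped with those on high salt. Among these, 5 erythroid genes were 5 of 5 positive (median log2 1.20, 2855 to 6421 CPM in low-salt and 1183 to 4750 CPM in high-salt kidneys). Slc4a1, also on the intercalated cell list, had 815 to 1649 CPM of this in low-salt and 731 to 1216 CPM in high-salt kidneys. The 5 proximal tubule genes were 5 of 5 positive (median 0.75, 114 to 474 CPM in low-salt and 60.6 to 353 CPM in high-salt kidneys), as were 5 intercalated cell genes (median 0.38). Of 5 endothelial genes 1 was positive (median -0.19), and Emcn was called lower. The 5 together summed to 241 to 416 CPM in low-salt and 366 to 464 CPM in high-salt kidneys. Urothelial genes (1 of 6 positive, median -0.56) and genes of dividing cells (0 of 6, median -0.30) were mostly negative. The part of these cells in the values of the members was not tested.

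Aldosterone at an unchanged diet asks whether the hormone alone moves these genes in the inner medulla. EdgeR called 0 of 29 members, and 0 of 17671 genes tested (0%), with 1750 genes at an unadjusted p under 0.05. DESeq2 called 373 genes, 299 of them higher (1.69%), and 1 member, Lss, higher. Before adjustment, 4 members (Lss, Ebp, Elovl6 and Hmgcs1) had a p under 0.05 upward and 0 downward, beside 6.2% and 3.7% of all genes. Of the 29 members 25 had a positive log2 fold change (median 0.16), where 50.9% of all genes did (median 0.0041).

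Lss, which closes squalene epoxide into lanosterol, stood at 60.3, 54.1, 55.5 and 51.3 CPM in aldosterone-infused rats, against 40.7, 31.7, 39.1 and 37.5 CPM in their controls. The lowest infused rat lay above the highest control. The log2 fold change was 0.57 ± 0.096, with an adjusted p of 0.182 in edgeR and 0.000285 in DESeq2, and it was 0.66 in batch 1 and 0.48 in batch 2. Ebp, the sterol isomerase, stood at 24.2, 25.01, 25.6 and 22.9 CPM in aldosterone-infused rats, against 21.8, 21.2, 18.2 and 16.8 CPM in their controls, also without overlap (log2 0.33 ± 0.093, adjusted p 0.302). Lss and Ebp were the 2 members without overlap, both higher, beside 3.15% of all genes higher and 1.95% lower.

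Hmgcs1 stood at 105, 92.1, 113 and 50.7 CPM in aldosterone-infused rats, against 63.5, 48.7, 63.0 and 50.5 CPM in their controls. Replicates 1 to 3 of the infused rats exceeded all controls, while replicate 4 lay among them, and the log2 fold change was 0.67 ± 0.23 (adjusted p 0.402). Mvk stood at 22.0, 20.8, 18.6 and 14.2 CPM in aldosterone-infused rats, against 17.5, 15.8, 16.2 and 13.3 CPM in their controls, overlapping in replicate 4 (log2 0.26 ± 0.12, adjusted p 0.551). Lbr stood at 30.4, 22.8, 26.9 and 26.1 CPM in aldosterone-infused rats, against 25.6, 22.4, 19.4 and 24.5 CPM in their controls, overlapping as well (log2 0.21 ± 0.12, adjusted p 0.622). Pmvk, which fell on low salt, stood at 56.2, 71.8, 52.2 and 44.6 CPM in aldosterone-infused rats, against 63.7, 73.0, 46.4 and 50.2 CPM in their controls, with a log2 fold change of -0.046 ± 0.10, and its groups overlapped over nearly the whole range.

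The sterol arm as a whole had 18 genes above 0 and 2 below (Pmvk and Tm7sf2), with a median of 0.22 and a range of -0.11 to 0.67. That median was 0.094 without control replicate 4, 0.13 without infused replicate 3, 0.14 without infused replicate 1 or control replicate 2, and up to 0.32 with another library left out. Among the regulators, Insig1 had 110.4, 103, 146 and 60.6 CPM in aldosterone-infused rats, against 112, 62.5, 93.0 and 40.4 CPM in their controls (log2 0.46 ± 0.34, adjusted p 0.700). Srebf2 and Scap differed between the groups by 0.012 and -0.0032, and Srebf1 by -0.19 ± 0.13, each with an adjusted p above 0.6. In the fatty acid arm all 5 were above 0, with a median of 0.11. Elovl6 stood at 56.5, 51.5, 63.1 and 59.1 CPM in aldosterone-infused rats, against 53.6, 43.1, 47.0 and 47.1 CPM in their controls, and only the lowest infused rat and the highest control crossed (log2 0.27 ± 0.090, adjusted p 0.389).

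Fads1 and Fads2 under aldosterone depended on replicate 4. Fads1 stood at 168, 151, 174 and 271 CPM in aldosterone-infused rats, against 183, 157, 212 and 180.3 CPM in their controls, and Fads2 at 87.7, 80.2, 80.4 and 157 CPM in aldosterone-infused rats, against 97.7, 93.1, 112 and 68.2 CPM in their controls. In both genes replicate 4 was the highest infused rat by far and the other 3 lay at or below the middle of the controls. Without infused replicate 4 the log2 fold change was -0.13 for Fads1 and -0.18 for Fads2, in place of 0.044 ± 0.15 and 0.11 ± 0.24, and the median of the arm was -0.13. Without control replicate 4 they were -0.030 and -0.079.

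Within groups, single libraries were high or low across many sterol genes. In the infused rats replicate 4 was the lowest of its group for 15 of 20 sterol genes and replicate 1 the highest for 13. In their controls replicate 4 was the lowest for 14 and replicate 1 the highest for 13. The mean log2 level of the 20 genes, relative to the control mean, was 0.38, 0.21, 0.29 and -0.0054 in infused rats 1 to 4, against 0.21, -0.040, 0.13 and -0.30 in controls 1 to 4. Each infused rat thus lay above the control of the same number, but the 2 groups overlapped, and the labels do not say that a number pairs rats. In the low-salt experiment replicate 2 was the highest for 12 of 20 genes in low-salt kidneys, for 14 in high-salt kidneys and for 13 in high-salt hearts. The lowest was replicate 1 for 10 in low-salt kidneys, and replicate 3 for 12 in high-salt kidneys and 10 in high-salt hearts. Low-salt hearts went otherwise, with replicate 3 the highest for 8 and replicate 2 the lowest for 8.

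**Figure D3:**
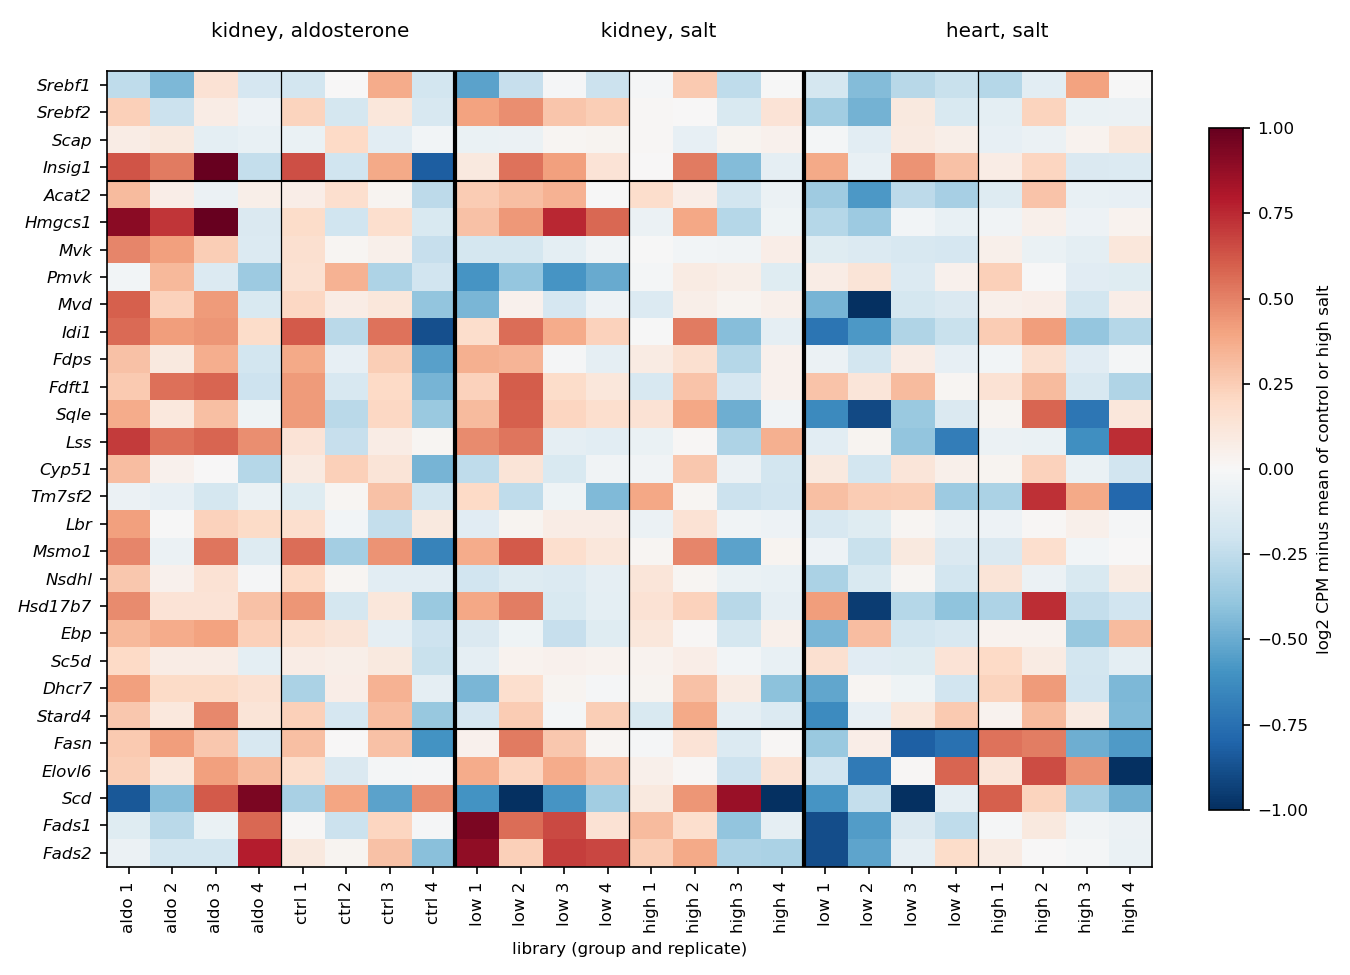
Log2 CPM of each of the 29 genes (rows) in each of the 24 libraries (columns), centred per gene on the mean of the controls or of the high-salt libraries of the same table; the colour scale ends at -1 and 1. Columns within a group shift as blocks over the sterol genes, as in replicate 4 of the aldosterone controls (mean over 20 sterol genes -0.30).

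Summed markers of some other cells differed between aldosterone-infused rats and their controls, though edgeR called no marker gene. The 6 genes of dividing cells summed to 96.8 to 183 CPM in infused rats and to 19.1 to 59.9 CPM in controls, without overlap (6 of 6 positive, median log2 1.72), and the 5 erythroid genes to 3410 to 4696 CPM in infused rats and 2066 to 2620 CPM in controls, also without overlap (5 of 5 positive, median 0.82). Slc4a1, on the erythroid list, is also on the list of intercalated cells. It stood at 1009 to 2162 CPM in infused rats and 874 to 1482 CPM in controls. The 5 fibroblast genes (5 of 5 positive, median 0.94) and the 4 genes of the thick ascending limb (4 of 4, median 0.79) overlapped in their sums. So did the 6 urothelial genes (6 of 6, median 0.55) and the intercalated cell genes (4 of 4 tested, median 0.28). Of 7 principal cell genes 3 were positive (median -0.13). The part of these cells in the members' values was not tested.

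Of the other pathway genes under aldosterone, 0 of 16, 0 of 18 and 0 of 12 were called by edgeR and by DESeq2. The list of uptake and control had a median log2 of -0.0097, and among its smallest p-values were those of Tmem97 (log2 0.42 ± 0.12, adjusted p 0.317), Npc2, which carries sterol out of lysosomes (0.16 ± 0.063, 0.453) and Ggps1, the geranylgeranyl diphosphate synthase (-0.13 ± 0.061, 0.520). Tmem97 thus had opposite signs under aldosterone and on low salt. The fatty acid list had a median of 0.026, led by Acacb, an acetyl-CoA carboxylase (0.55 ± 0.22, 0.477), Scd2, a stearoyl-CoA desaturase (-0.19 ± 0.097, 0.571), and Dgat2 and Lpin1 of triglyceride synthesis (0.14 ± 0.072 and 0.32 ± 0.17). Scd2, unlike the member Scd, was not scarce, with means of 601 CPM in infused rats and 687 CPM in controls. The LXR list had a median of 0.20, with negative values for Abcg1 (-0.50 ± 0.15, adjusted p 0.350) and Mylip (-0.39 ± 0.16, 0.486) and positive ones for the lipoprotein genes Apoe (0.73 ± 0.25, 0.396) and Pltp (0.95 ± 0.40, 0.488).

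Set beside each other, the responses to aldosterone and to low salt in kidney used no library in common. Over the 29 members the log2 fold changes had a Pearson r of 0.38 and a Spearman rho of 0.31 across genes, and 22 had the same sign (18 both positive, 4 both negative). Over all 17491 genes tested in both, r was 0.10 and 9464 had the same sign, and genes are not independent replicates. The difference of the 2 responses was called by edgeR for 0 of 29 members and 10 of 18938 genes (0.0528%), with 4 members above 0 and 2 below at an unadjusted p under 0.05, beside 13.1% of all genes. Ebp had a difference of 0.45 ± 0.11 (aldosterone minus low salt, adjusted p 0.104), Pmvk 0.45 ± 0.13 (0.129), Fads1 -0.57 ± 0.21 (0.272), Mvk 0.36 ± 0.14 (0.278), Srebf2 -0.35 ± 0.16 (0.354) and Nsdhl 0.23 ± 0.11 (0.380). The experiments also differ in the Xist and Y-linked pattern given above, so the treatment and that difference cannot be told apart here.

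Low salt against high salt in the heart ventricle puts the same diet to another tissue. EdgeR called 0 of 29 members and 8 of 15473 genes (0.0517%), with 1641 genes at an unadjusted p under 0.05. DESeq2 called 0 members, giving no adjusted p for Tm7sf2 and Elovl6, and 303 genes (1.96%). Before adjustment, 6 members had a p under 0.05 downward and 0 upward, beside 4.92% and 5.68% of all genes. With the replicate number as a block, edgeR called 0 genes in place of 8, and 0 members, though the labels do not say that a number pairs rats.

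Most members had negative log2 fold changes in heart. Of 29 members 22 were below 0, with a median log2 of -0.17, where all genes had a median of -0.0081 and 48.2% lay above 0. In the fatty acid arm all 5 were below 0 with a median of -0.45, which was -0.76 in batch 1 alone and -0.15 in batch 2 alone. Fasn stood at 7.31, 9.93, 5.37 and 5.64 CPM in low-salt hearts, against 13.8, 13.5, 6.74 and 6.41 CPM in high-salt hearts. Each batch had its own level, with replicates 1 and 2 above replicates 3 and 4 in both groups, and within each batch the low-salt hearts lay below the high-salt hearts (log2 -0.47 ± 0.13, adjusted p 0.274). Fads1 stood at 7.43, 9.34, 12.4 and 11.5 CPM in low-salt hearts, against 13.6, 14.7, 13.4 and 13.2 CPM in high-salt hearts, without overlap (log2 -0.45 ± 0.14, adjusted p 0.308).

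Fads2 stood at 10.9, 14.0, 19.0 and 22.9 CPM in low-salt hearts, against 21.4, 20.2, 19.96 and 19.3 CPM in high-salt hearts, where the low-salt hearts of batch 1 were low and replicate 4 was the highest of all 8 (log2 -0.31 ± 0.17, adjusted p 0.571). Scd and Elovl6 were scarce, with 1.46 to 3.31 CPM in low-salt hearts and 2.53 to 5.34 CPM in high-salt hearts for Scd and 0.664 to 1.64 CPM in low-salt hearts and 0.463 to 1.72 CPM in high-salt hearts for Elovl6.

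In the sterol arm 15 of 20 genes were below 0, with a median of -0.13, which was -0.18 in batch 1 alone and -0.011 in batch 2 alone. It was -0.061 without high-salt replicate 2, -0.081 without low-salt replicate 1 and down to -0.20 with another library left out. Acat2 stood at 4.81, 4.13, 5.16 and 4.89 CPM in low-salt hearts, against 5.63, 7.51, 5.88 and 5.84 CPM in high-salt hearts, without overlap (log2 -0.39 ± 0.14, adjusted p 0.395). Mvk stood at 14.99, 14.8, 14.5 and 14.5 CPM in low-salt hearts, against 16.8, 15.6, 15.2 and 17.6 CPM in high-salt hearts, again without overlap but with a small difference (log2 -0.15 ± 0.072, adjusted p 0.512). Acat2, Mvk and Fads1 were the 3 members without overlap, all lower, beside 2.04% of all genes lower and 2.69% higher. Hmgcs1 stood at 38.1, 36.1, 45.4 and 43.9 CPM in low-salt hearts, against 45.1, 48.0, 44.7 and 47.5 CPM in high-salt hearts, where the batch 1 low-salt hearts were lowest and batch 2 reached the high-salt range (log2 -0.19 ± 0.072, adjusted p 0.416). Mvd stood at 6.80, 4.50, 8.32 and 8.47 CPM in low-salt hearts, against 9.71, 9.84, 8.24 and 9.84 CPM in high-salt hearts (log2 -0.44 ± 0.18, adjusted p 0.441), and 2 low-salt values lay above the lowest high-salt value.

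Among the regulators in heart, Srebf1 stood at 14.4, 12.1, 13.4 and 13.9 CPM in low-salt hearts, against 13.4, 15.1, 21.5 and 16.2 CPM in high-salt hearts (log2 -0.29 ± 0.12, adjusted p 0.465), overlapping. Srebf2 had 30.2 to 44.8 CPM in low-salt hearts and 39.1 to 48.8 CPM in high-salt hearts (log2 -0.22 ± 0.13), and Insig1 had 59.9 to 86.2 CPM in low-salt hearts and 57.1 to 73.2 CPM in high-salt hearts, with a log2 fold change of the other sign (0.27 ± 0.13, adjusted p 0.503). Pmvk stood at 27.9, 29.01, 24.2 and 27.4 CPM in low-salt hearts, against 31.4, 26.5, 24.5 and 24.5 CPM in high-salt hearts, and no difference was detected (log2 0.026 ± 0.074, adjusted p 0.923).

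Of the other pathway genes in heart edgeR called 0 of 15, 0 of 16 and 0 of 11 tested, and DESeq2 called 1 higher in the fatty acid list (Mlxipl, adjusted p 0.0324), beside 1.22% of all genes higher, and 0 in the LXR list. Ggps1 (0.21 ± 0.066, adjusted p 0.331) and Insig2, a second retention protein (0.20 ± 0.072, 0.386), were above 0. In the fatty acid list Mlxipl (0.64 ± 0.17, 0.268) and Pnpla3, a lipid droplet enzyme (0.38 ± 0.14, 0.393), were above 0, and Aacs (-0.40 ± 0.19) and Scd2 (-0.29 ± 0.14) below. In the LXR list the receptor gene Nr1h2 (0.21 ± 0.058, 0.271), Pltp (0.17 ± 0.051, 0.298), Cyp27a1 (0.24 ± 0.082) and the sterol exporter Abca1 (0.54 ± 0.21) were all above 0. The medians of the 3 lists were 0.020, -0.017 and 0.17.

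In heart the summed markers overlapped between the diets for all 14 cell types. Erythroid genes summed to 16192 to 52263 CPM in low-salt and 2157 to 33241 CPM in high-salt hearts, and 5 atrial genes to 34.6 to 209 CPM in low-salt and 113 to 2547 CPM in high-salt hearts. The 5 fibroblast genes (0 of 5 positive, median -0.32) and 7 leukocyte genes (0 of 7, median -0.21) had negative fold changes throughout. Of the adipocyte genes Retn was at 0 in every heart library and Adipoq reached at most 0.560 CPM, and without Fabp4, which endothelium also expresses, the list summed to 2.82 to 5.13 CPM in low-salt and 3.45 to 4.91 CPM in high-salt hearts. The part of the other cell types in the heart values was not tested.

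The difference between the low-salt response of kidney and that of heart was tested over the 16 libraries of that experiment. EdgeR called 2 of 29 members: Fads1 with a difference of 1.04 ± 0.21 on the log2 scale (kidney minus heart, adjusted p 0.0403), the sole member called higher beside 0.376% of 19408 genes, and Pmvk with -0.54 ± 0.10 (adjusted p 0.0332), the sole member called lower beside 0.453%. Over both directions it called 161 genes (0.83%). Within tissues, the log2 fold change of Fads1 was 0.59 ± 0.14 in kidney and -0.45 ± 0.14 in heart, called by edgeR in neither and by DESeq2 in kidney alone, and that of Pmvk was -0.52 ± 0.072 in kidney and 0.026 ± 0.074 in heart. At an unadjusted p under 0.05, 8 members had a positive difference and 1 a negative one, beside 14.4% of all genes in either direction.

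The next members by adjusted p all had positive differences: Fasn 0.70 ± 0.17 (adjusted p 0.0807), Acat2 0.62 ± 0.16 (0.0905), Hmgcs1 0.70 ± 0.19 (0.102), Srebf2 0.57 ± 0.16 (0.115), Fads2 0.96 ± 0.27 (0.117), Idi1 0.78 ± 0.28 (0.211) and Sqle 0.86 ± 0.32 (0.223). In heart, the low-salt log2 change of each of these was more negative in batch 1 than in batch 2. Batch 1 and batch 2 gave -0.66 and -0.26 for Fasn, -0.55 and -0.22 for Acat2, and -0.33 and -0.045 for Hmgcs1. They gave -0.48 and 0.041 for Srebf2, -0.74 and 0.097 for Fads2, -0.99 and 0.074 for Idi1, and -1.10 and -0.012 for Sqle. For the called Fads1 they gave -0.76 and -0.15. The median kidney minus heart difference was 0.70 in the fatty acid arm, 0.14 in the sterol arm and 0.035 among regulators. With the replicate number as a block, edgeR called 0 members and 16 genes, with an adjusted p of 0.101 for Fads1 and 0.0788 for Pmvk. The labels do not say that a number pairs rats. Without the block, both calls hung on single libraries. Fads1 passed without heart low-salt replicate 3, heart high-salt replicate 4, kidney low-salt replicate 2 or 4, or kidney high-salt replicate 4, and was lost without each of the other 11 libraries (adjusted p up to 0.0923). Pmvk passed without heart high-salt replicate 1, heart low-salt replicate 3, kidney low-salt replicate 2 or kidney high-salt replicate 4, and was lost without each of the other 12 (up to 0.0923). Over these left-out fits the difference stayed between 0.92 and 1.13 for Fads1 and between -0.61 and -0.49 for Pmvk.

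Between the tissues on high salt, most members stood higher in kidney. EdgeR called 17 of 29 higher and 4 lower in kidney than in heart, where it called 41.1% and 36.7% of 18175 genes, so the calls are dense in both directions. The 8 libraries were scaled together for this fit, whose CPM therefore differ from those above. The median gene lay at 0.13 on the log2 scale under TMM scaling, at 0.11 with DESeq2 size factors and at 0.31 with upper quartile scaling, so differences are to be read relative to that. Tissue and whatever differed in making the libraries of each tissue cannot be told apart.

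The fatty acid arm had 4 genes higher in kidney and 1 not called, with a median of 2.05. Elovl6 had 30.4 to 39.5 CPM in high-salt kidneys and 0.642 to 2.36 CPM in high-salt hearts (log2 4.40 ± 0.30, adjusted p 7.29e-07), a 21.1-fold difference. Fads1 had 69.8 to 116 CPM in high-salt kidneys and 18.3 to 20.2 CPM in high-salt hearts (log2 2.32 ± 0.15), and Fads2, its neighbour, 37.5 to 61.0 CPM in high-salt kidneys and 26.7 to 29.4 CPM in high-salt hearts (log2 0.78 ± 0.16). Fasn had 51.7 to 63.3 CPM in high-salt kidneys and 8.88 to 18.9 CPM in high-salt hearts (log2 2.05 ± 0.26). Scd went the other way in sign, with 0.924 to 4.38 CPM in high-salt kidneys and 3.50 to 7.33 CPM in high-salt hearts (log2 -0.85 ± 0.44, adjusted p 0.101), and was not called.

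In the sterol arm 11 genes were higher in kidney, 3 lower and 6 not called, with a median of 0.48. Tm7sf2 had 36.2 to 55.3 CPM in high-salt kidneys and 1.18 to 3.37 CPM in high-salt hearts (log2 4.27 ± 0.30, 19.2-fold), whereas Lbr, the other sterol reductase of the same step, had 16.7 to 19.3 CPM in high-salt kidneys and 30.1 to 32.3 CPM in high-salt hearts (log2 -0.84 ± 0.078). The pair thus had opposite signs between tissues. The groups did not overlap in either gene. Sqle (2.34 ± 0.27), Dhcr7 (2.32 ± 0.22), Ebp (1.79 ± 0.16) and Acat2 (1.67 ± 0.13) followed Tm7sf2 in size, and Mvk (-0.57 ± 0.085) and Stard4 (-0.63 ± 0.18) were lower in kidney beside Lbr. The genes not called were Hmgcs1, Mvd, Fdps, Fdft1, Lss and Hsd17b7, between -0.32 and 0.58.

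Among regulators Srebf1 had 59.2 to 86.0 CPM in high-salt kidneys and 18.4 to 29.6 CPM in high-salt hearts (log2 1.66 ± 0.16) and Srebf2 103 to 129 CPM in high-salt kidneys and 53.8 to 67.0 CPM in high-salt hearts (log2 1.01 ± 0.099), both higher in kidney. Insig1 had 39.6 to 77.7 CPM in high-salt kidneys and 78.7 to 100.3 CPM in high-salt hearts and was lower in kidney (log2 -0.65 ± 0.19, adjusted p 0.0101). Scap differed by 0.16 ± 0.072 and was not called.

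**Figure D4:**
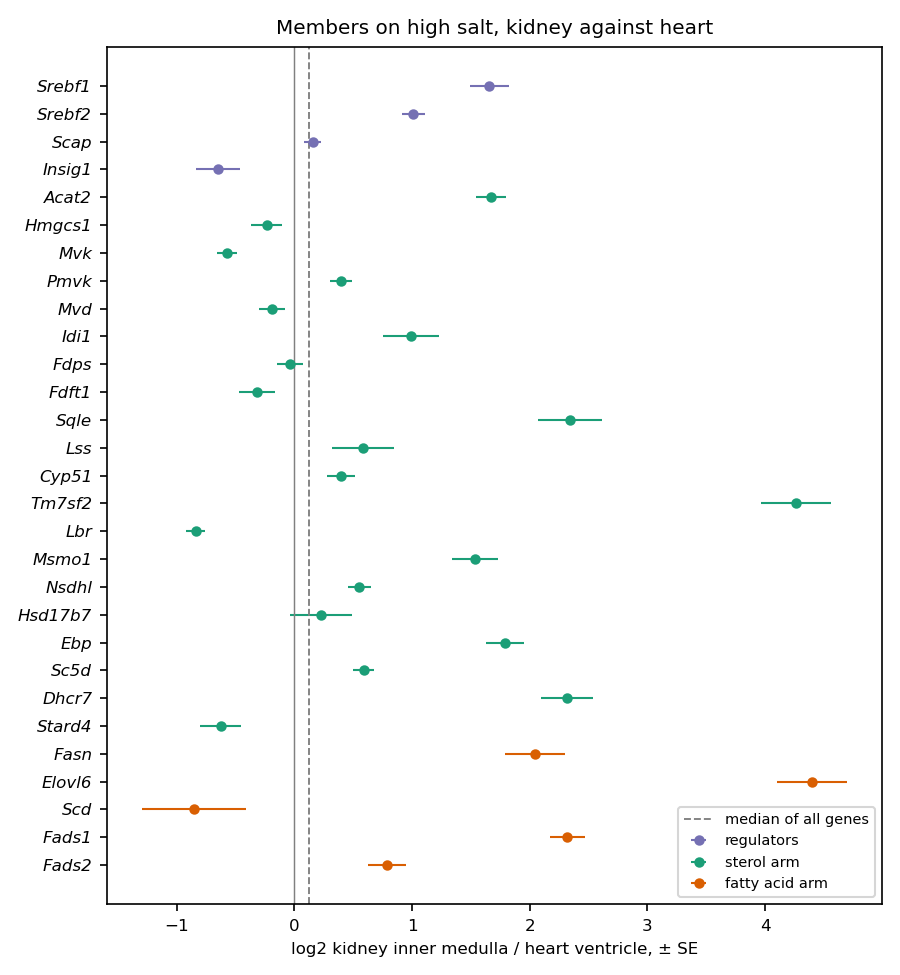
Log2 difference of each of the 29 genes between high-salt kidney inner medulla and high-salt heart ventricle (kidney over heart), with its standard error, n = 4 libraries per tissue; the dashed line marks the median of all genes tested (0.13). Elovl6 (4.40) and Tm7sf2 (4.27) lie farthest to the right, and Lbr, Insig1, Stard4 and Mvk are the genes called lower in kidney.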

How the data were processed

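The authors deposited expected counts, which are estimates and can hold fractions, in 3 tables of 36856 genes, and all 24 columns were matched to samples by library name. Per the labels' protocols, stranded mRNA libraries were read from 1 end with 50 cycles. Per the submitters' processing notes, Salmon, Trimmomatic, bcl2fastq 2.19 and MultiQC were used. Settings, strand handling, annotation and build are not given in the sources on hand, so reads shared with near-identical genes such as Scd and Scd2 may be split unevenly.

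The deposited counts were rounded, filtered by filterByExpr (minimum count 10), scaled by TMM and tested per table with edgeR 4.0.16 (quasi-likelihood F test, batch as a term, R 4.3.3), with Benjamini-Hochberg adjustment over all genes tested and a threshold of 0.05. Standard errors of log2 values were derived from that test, as the absolute log2 value divided by the square root of F. Differences between responses were fitted over 16 libraries, each table and batch having its own intercept, and the tissue difference over 8 high-salt libraries. Levels are CPM scaled within a table and not per gene length, so levels of different genes are not compared. The labels name the rats as separate, and no pair of libraries agreed within sampling noise (chi-square per gene 20.3 to 104 over 36 pairs). The scripts were tested on simulated data. Members, lists and alternatives were chosen with earlier results of these data known. Every member is named. Values in each library are given for a member called in a treatment comparison or interaction, among the 6 smallest p or without overlap, and the 4 smallest p of each pathway list are named, except for some genes, which with DESeq2's counts for the sterol uptake list on low salt are not reported here. The 21 members called between tissues are given by ranges or log2 differences. Same-numbered heart libraries correlated at 0.19, 0.17, 0.22 and 0.13 in their deviations from the group mean. Within a batch these were 0.0038 and -0.048. Low-salt heart replicates 2, 3 and 4 correlated more with a high-salt library of another number (up to 0.19, 0.27 and 0.16). These values therefore do not show that the numbers pair rats. RefSeq's GRCr8 tables gave promoters and names.

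Alternatives were DESeq2 1.42.0, other scalings, a filter of 1 CPM in 4 libraries or none, leaving out the batch term, the replicate block, each batch alone and each library left out.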

Additional observations from a re-analysis of the deposited data

Results flagged for a closer look

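In 12 of 174 group levels of the members 1 library stood apart from the other 3 of its group, where chance would flag about 8.7. Of the 12, 3 came from the same library, high-salt heart replicate 2: Srebf2 stood there at 48.8 CPM (others 39.1 to 40.3), Acat2 at 7.51 (5.63 to 5.88) and Hsd17b7 at 6.68 (3.22 to 3.49). High-salt kidney replicate 2 stood high for Lbr with 26.3 CPM (others 22.9 to 23.3) and for Stard4 with 34.5 (23.8 to 24.8). Mvd was low with 14.1 CPM in high-salt kidney replicate 1 (others 15.8 to 16.1) and with 8.24 in high-salt heart replicate 3 (9.71 to 9.84). Sc5d was low with 67.5 CPM in aldosterone control replicate 4 (others 82.1 to 84.6) and with 75.1 in low-salt kidney replicate 1 (81.8 to 82.5). Tm7sf2 stood at 1.15 CPM in low-salt heart replicate 4 (others 1.76 to 1.83).

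In the aldosterone-infused rats Dhcr7 stood at 26.7 CPM in replicate 1 (others 22.3 to 22.9) and Fads2 at 157 CPM in replicate 4 (others 80.2 to 87.7). Replicate 4 was at the same time the lowest of its group for 15 of 20 sterol genes and the highest for 3 of 5 fatty acid genes.

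The response to low salt differed between kidney and heart for 2 members in edgeR's test of the difference: Pmvk by -0.54 and Fads1 by 1.04 on the log2 scale, kidney minus heart. Causes were not tested.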

How the results depend on the processing

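No alternative turned the sign of a member called or at an unadjusted p under 0.05, and the tissue difference (21 members called) had 21 to 24 with each library left out in turn. In the low-salt kidney, where 1 member and 454 genes were called, DESeq2 gave 6 and 1695, a filter of 1 CPM gave 2 members (Srebf2 added, adjusted p 0.0462), no batch term gave 165 genes, batch 1 alone 0 members and 0 genes, and batch 2 alone 2 members (Hmgcs1 and Fads2) and 240 genes. Leaving out each library gave 0 to 3 members and 2 to 423 genes, lowest without low-salt replicate 3. Without high-salt replicate 4 Srebf2 (adjusted p 0.0279) and Scd (0.0499) also passed, and without low-salt replicate 2 Fads2 did (0.0244). The median of the sterol arm ranged from -0.0051 to 0.11 with each library left out, and it was -0.078 in batch 1 alone and 0.082 in batch 2 alone.

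Under aldosterone DESeq2 called 1 member and 373 genes, no filter gave 4 genes and batch 1 alone 1, and leaving out each library gave 0 to 2. The fatty acid median was -0.092 in batch 1 alone and 0.38 in batch 2 alone, and -0.13 to 0.20 with each library left out, turning negative without infused replicate 4. In heart the 8 genes became 303 with DESeq2, 85 with no filter, 1 with no batch term, 1 in each batch alone and 1 to 8 with each library left out. No member was called there under any alternative. With each library left out, the kidney and heart responses differed in 11 to 194 genes and 0 to 3 members, and the aldosterone and low-salt responses in 0 to 67 genes.

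With the replicate number as a block, the low-salt kidney had 52 genes and 0 members (Pmvk adjusted p 0.0553), heart 0 genes, the difference between kidney and heart 16 genes and 0 members, and that between aldosterone and low salt 0 genes. The tissue difference had 24 members called in place of 21 (Fdft1, Lss and Scd added). Under aldosterone 0 genes and 0 members were called, as without the block. The numbers pair no rats in the labels, and same-numbered kidney libraries correlated at -0.040, 0.31, -0.040 and -0.022 on low salt and at 0.11, 0.23, -0.031 and 0.40 under aldosterone, so a call lost there is not read as a weaker effect. The cause of these changes was not tested. With 4 rats per group, small changes can be missed, and genes near 1 CPM, such as Elovl6 and Tm7sf2 in heart, carry more counting error.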
